A study of Mus musculus with 6 samples.

Results

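The AP-1 family was followed through the transcriptome of mouse aorta lacking the O-GlcNAc transferase gene Ogt in smooth muscle. The members were the 10 genes Fos, Fosb, Fosl1, Fosl2, Jun, Junb, Jund, Atf3, Batf3 and Jdp2, chosen by symbol, and all 10 were found among the 55487 genes of the count table, each with 1 identifier. RNA was sequenced from whole aorta in 6 libraries. The 3 control libraries came from mice with a loxP-flanked Ogt gene (genotype LoxP), and the 3 knockout libraries from mice in which smooth muscle cells had lost Ogt (genotype Ogt SMC specific knockout). Titles of both groups carry SM22, the protein encoded by Tagln, whose promoter is widely used to drive Cre recombinase in smooth muscle. The sources used here do not state whether the controls carried Cre, how old the mice were, their sex or how many went into a library. The p-values therefore reflect only how much these libraries scatter, and some of that scatter may be technical.

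AP-1 is a transcription factor made of 2 basic leucine zipper proteins. JUN proteins pair with each other or with FOS proteins, and pair also with ATF3, BATF3 and JDP2, and the dimers bind the sequence TGACTCA and close variants. Fos, Fosb, Jun, Junb and Atf3 are immediate early genes, transcribed within minutes of serum, stretch, injury or stress through transcription factors that are already present, whereas Jund is expressed steadily in many resting tissues. In the vessel wall, AP-1 is known for its induction by mechanical load and by injury of smooth muscle.

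The promoters of the 3 members with the lowest knockout mean relative to control, Fos, Fosb and Junb, are shown because the values below turn on these genes. Each line gives the 250 bases before the RefSeq start (GRCm38.p6), 5′ to 3′ on the strand of the gene, with capitals marking TGACG, the core of the cyclic AMP response element, on either strand.
Fos (chr12:85473640-85473889, plus strand): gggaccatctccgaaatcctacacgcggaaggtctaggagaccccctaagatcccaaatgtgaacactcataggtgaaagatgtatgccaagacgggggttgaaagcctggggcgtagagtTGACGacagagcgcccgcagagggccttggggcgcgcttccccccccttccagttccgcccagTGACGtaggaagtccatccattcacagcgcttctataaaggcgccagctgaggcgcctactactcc
Fosb (chr7:19310046-19310295, minus strand): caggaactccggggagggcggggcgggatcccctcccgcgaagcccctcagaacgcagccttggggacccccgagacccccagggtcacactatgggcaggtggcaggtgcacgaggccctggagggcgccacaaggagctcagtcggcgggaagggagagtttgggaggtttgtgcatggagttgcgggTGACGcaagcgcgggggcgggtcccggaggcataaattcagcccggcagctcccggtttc
Junb (chr8:84978749-84978998, minus strand): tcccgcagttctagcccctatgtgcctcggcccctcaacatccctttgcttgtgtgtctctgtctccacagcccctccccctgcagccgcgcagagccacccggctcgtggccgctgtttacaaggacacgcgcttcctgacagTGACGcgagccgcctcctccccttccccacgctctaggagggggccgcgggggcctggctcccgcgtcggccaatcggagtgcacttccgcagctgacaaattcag
The Fos promoter held TGACG at 129 and at 66 bases before the start, the second as TGACGT, and TATAAA, found in 12.4% of all promoters of this length and in no other member, at 33 bases. The Fosb and Junb promoters each held 1 copy, at 60 and 106 bases. A promoter was available for 9 members, Fosl1 being the other one, and 5 of these 9 (Fos, Fosb, Junb, Atf3 and Jdp2) held TGACG, against 17.8% of 32851 promoters of the same length. Jdp2 had 3 RefSeq starts and its match lay before the second of them alone, so by first starts TGACG was held by 4 of 9. The longer TGACGT, which contains it, was found in 3 of 9 (Fos, Atf3 and Jdp2; 2 by first starts) against 6.47%. The AP-1 site TGACTCA was found in 0 of 9 against 4.46%, the full element TGACGTCA in 0 of 9 against 1.55%, and the CArG box bound by serum response factor in 0 of 9 against 1.47%. All motifs were searched on both strands. Close variants of TGACTCA were not searched, so 0 of 9 does not mean that no member promoter has an AP-1 site. The Jun promoter, for example, holds TGACATCA. These matches describe letters in a short window of 250 bases, so a site farther upstream, a CArG box included, would not be counted. For Jund and Atf3 the RefSeq start lies away from the 5′ end of the gene as listed in the count table, at -1210 bases (upstream) and at 34706 bases (inside the gene). Starts of Fosl2 and Batf3 lie 671 and 567 bases inside the gene. The 3 starts of Jdp2 lie 78, 389 and 991 bases inside it, the matches being before the second.

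Ogt itself was lower in every knockout library. Control replicates 1 to 3 had 177.4, 183.2 and 150.0 CPM (counts scaled by library size and composition) and knockout replicates 1 to 3 had 93.3, 73.5 and 70.9 CPM, and edgeR's quasi-likelihood test gave a log2 fold change of -1.10 ± 0.15 (SE) with an adjusted p of 0.0214. Ogt no longer passed when control replicate 1 was left out (adjusted p = 0.105 by edgeR), nor without knockout replicates 1, 2 or 3 (0.0729, 0.126 and 0.0732). The 5 deeper libraries held 11845644 to 18218385 counts. Control replicate 2, with 3038782, stood apart. Mitochondrial ribosomal RNA held 10.2% of its counts, against 0.491% to 0.823% in the other 5 libraries. Protein-coding genes held 77.2%, against 93.2% to 94.2%, and Malat1 held 1.63%, against 0.219% to 0.305%. Results are therefore also given without this library. Of the marker lists, all 8 smooth muscle genes were tested and their summed level was 29635 to 35630 CPM in controls and 24176 to 28722 CPM in knockouts, Tagln being the member called lower (log2 fold change -1.14, edgeR adjusted p = 0.0331, and below the threshold in 1 of 6 fits that left out a library, without control replicate 2). Without Tagln the sums overlapped. For 4 of the 8 genes the knockouts lay below all controls, beside 14.8% of all genes. The 7 tested brown adipocyte markers summed to 288.5 to 416.0 CPM in controls and 158.5 to 210.6 CPM in knockouts, with Ucp1, Cox8b and Cox7a1 called lower. Summed cardiac muscle markers (6 of 8 tested) were 14.5 to 26.2 CPM in controls and 30.7 to 46.9 CPM in knockouts through Actc1, the call of that list (log2 fold change 2.21, edgeR adjusted p = 0.0321), and without it the sums overlapped (13.3 to 21.2 against 15.3 to 24.6 CPM). Summed Schwann cell markers (6 tested, 0 called, 1 at an unadjusted p under 0.05) were 422.6 to 508.7 against 514.3 to 552.0 CPM, and overlapped without Ncam1 (17.0 to 33.0 against 22.8 to 37.7 CPM). Of the mesothelium list, Krt18 alone was tested and was higher (10.4 to 17.7 against 25.1 to 35.3 CPM). Of 5 tested skeletal muscle markers, Ckm was called higher and Casq1 lower (log2 fold changes 3.97 and -2.04, edgeR adjusted p = 0.00152 and 0.0184), with overlapping sums. Erythroid sums ran from 191.2 CPM in knockout replicate 2 to 982.4 CPM in knockout replicate 1, and endothelial sums were 852.6 to 1024 CPM in controls, 1696 and 1708 CPM in knockout replicates 1 and 2 and 713.5 CPM in knockout replicate 3, which stood apart. The erythroid, white adipocyte, endothelial, macrophage and fibroblast lists had overlapping sums and 0 calls by edgeR, DESeq2 or limma, with 1 fibroblast gene (Pdgfra, lower) and 2 white adipocyte genes (Plin1, lower, and Lep, higher) at an unadjusted p under 0.05. The counts of all marker lists stand beside 1.56% of all genes called lower and 1.90% called higher by edgeR. At an unadjusted p under 0.05 the shares of all genes were 11.3% and 11.5%. None of the 8 lymphocyte markers passed the filter on low counts, and of the neutrophil list 1 of 6 did, with Ly6g at 0 counts. The part of these shifts in the results below was not tested, and fewer cells of a type and less RNA per cell cannot be told apart in whole tissue.

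Fosb and Junb fell in the knockout aorta, to 32.8% and 43.4% of their control means. Fos had a still lower knockout mean, 14.6% of control, but its libraries scattered widely and it did not pass the test over all genes. Jun and Atf3 had lower means (58.6% and 52.8% of control), Fosl2 and Jund stayed closer to control (81.4% and 88.1%), and Jdp2 had a higher mean (139.6%). None of the last 5 passed the test.

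**Figure D1:**
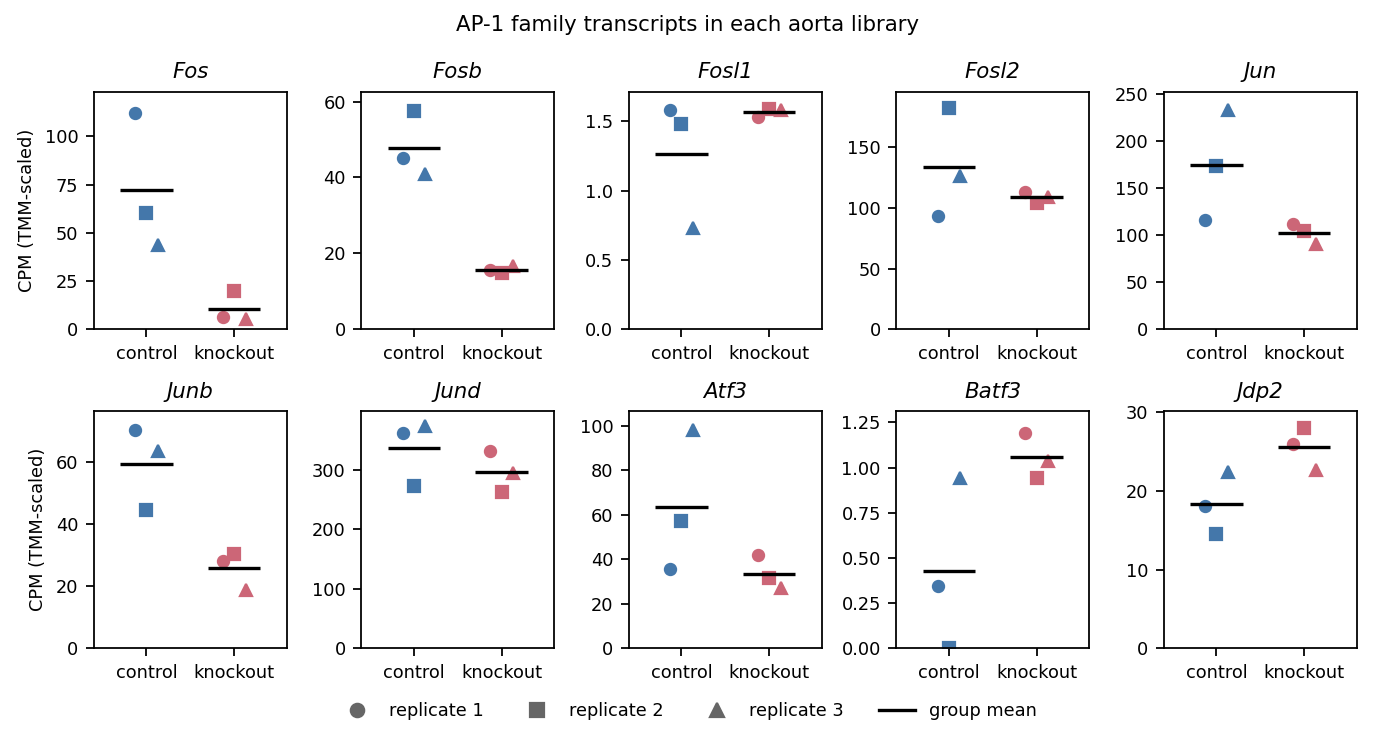
Level of each AP-1 transcript in CPM (y axis, from 0, own scale per panel) in the 3 control (blue) and 3 knockout (red) libraries, with symbols for replicate numbers and a line for the group mean. The knockout libraries of Fos, Fosb, Junb and Jun lie below all controls, by a narrow margin for Jun (112.5 against 116.2 CPM), and those of Jdp2 lie just above (22.6 against 22.3 CPM).

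Among the FOS genes, Fosb (chromosome 7, 19302696 to 19310051, minus strand; GRCm38 as for all positions here) encodes a FOS protein with a strong activation domain. Its level was 45.2, 57.5 and 41.0 CPM in control replicates 1 to 3 and 15.5, 14.9 and 16.7 CPM in knockout replicates 1 to 3. The groups were well separated, and the knockout libraries agreed closely with one another, with a standard deviation of 5.87% of their mean against 17.9% in controls. edgeR gave a log2 fold change of -1.59 ± 0.16 (SE; adjusted p = 0.0123), and without control replicate 2 it was -1.45 with an adjusted p of 0.0102.

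Fos (chromosome 12, 85473890 to 85477273, plus strand) encodes c-Fos, the founding member of the family. It had 112.0, 60.4 and 43.8 CPM in the controls and 6.55, 20.0 and 5.07 CPM in the knockouts, or 1629, 163 and 603 counts against 77, 340 and 93. The groups did not overlap, yet the highest control was 2.55 times the lowest and the highest knockout, replicate 2, was 3.94 times the lowest. At -2.77 ± 0.63 (SE) its log2 fold change was the lowest of the 10 members, and edgeR's adjusted p was 0.0706. Of 11845 tested genes with a mean of at least 5 CPM, 25, Fos included, had a log2 fold change as low or lower. DESeq2 and limma-voom called Fos lower (adjusted p = 4.37e-06 and 0.036), as did edgeR on protein-coding genes only (adjusted p = 0.0481). Without knockout replicate 2 the log2 fold change was -3.64 ± 0.47, with an edgeR adjusted p of 0.0844, and without control replicate 2 it was -2.87 (adjusted p = 0.109).

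Fosl1 and Fosl2 encode FRA1 and FRA2, FOS proteins that lack the strong activation domain. Fosl2 (chromosome 5, 32135801 to 32157842) was abundant, with 93.7, 182.1 and 126.1 CPM in controls and 113.1, 104.5 and 109.4 CPM in knockouts. The groups overlapped, and the highest value was that of control replicate 2. Its log2 fold change was -0.29 ± 0.23 (edgeR adjusted p = 0.487), and -0.01 without that library. Fosl1 (chromosome 19, 5447547 to 5455946) was scarce, with 23, 4 and 10 counts in controls and 18, 27 and 29 in knockouts, and its log2 fold change of 0.36 ± 0.39 did not pass edgeR's test (adjusted p = 0.624). It overlaps Ccdc85b, a gene on the other strand with 11817 counts in all against 111 for Fosl1, and with no strand setting given in the sources used here their shared reads cannot be told apart.

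Of the JUN genes, Junb (chromosome 8, 84976910 to 84978718, minus strand), which encodes a JUN protein that often restrains c-Jun, had 70.1, 44.5 and 63.3 CPM in controls and 28.1, 30.4 and 18.8 CPM in knockouts. Every knockout value lay below every control value, the nearest being control replicate 2. edgeR gave a log2 fold change of -1.22 ± 0.23 (adjusted p = 0.0412), and of -1.37 (0.0292) without control replicate 2. The position of Junb in the count table differs from that in the GENCODE M21 annotation.

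Jun (chromosome 4, 95049034 to 95052222, minus strand), which encodes c-Jun, had 116.2, 173.9 and 233.6 CPM in controls and 112.5, 104.1 and 90.3 CPM in knockouts. The controls spanned a factor of 2.01 and the knockouts 1.25, and control replicate 1 lay near the knockouts. Its log2 fold change was -0.77 ± 0.24 and the edgeR adjusted p was 0.122. DESeq2 called it lower (adjusted p = 0.0357). Its antisense gene Junos overlaps it by 689 bases and had 84 counts in all, against 10119 for Jun.

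Jund (chromosome 8, 70698949 to 70700616, plus strand), the steadily expressed member, had 362.2, 272.2 and 374.1 CPM in controls and 330.9, 262.7 and 294.5 CPM in knockouts. The groups overlapped, and the log2 fold change was -0.18 ± 0.16 (edgeR adjusted p = 0.536). The antisense gene Gm11175 lies inside it with 1021 counts, against 24907 for Jund.

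Atf3, Batf3 and Jdp2 encode small partners of JUN. Atf3 (chromosome 1, 191170296 to 191218039, minus strand), a stress-induced repressor and activator, had 35.5, 57.1 and 98.1 CPM in controls and 42.0, 31.5 and 27.2 CPM in knockouts. Control replicate 1 lay within the range of the knockouts, so the groups overlapped, and control replicate 3 was the highest. For Atf3 the log2 fold change was -0.93 ± 0.37 (edgeR adjusted p = 0.199), and it was -0.44 ± 0.26 without control replicate 3.

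Jdp2 (chromosome 12, 85599027 to 85639878, plus strand) encodes a JUN partner without an activation domain, known as a repressor of AP-1. It had 18.1, 14.5 and 22.3 CPM in controls and 25.9, 28.0 and 22.6 CPM in knockouts. Its groups touched without overlapping, the log2 fold change was 0.45 ± 0.18, and edgeR's adjusted p was 0.193. The RNA gene Gm47863 on the other strand shares 165 bases with it and had 162 counts, against 1805 for Jdp2. Batf3 (chromosome 1, 191097847 to 191108945), known for its role in dendritic cell development, had 5, 0 and 13 counts in controls and 14, 16 and 19 in knockouts, with overlapping groups (log2 fold change 0.93 ± 0.61, edgeR adjusted p = 0.404). Without control replicate 3 the log2 fold change of Batf3 was 1.92 ± 0.73 (edgeR adjusted p = 0.183).

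All 10 members passed the filter on low counts. By edgeR 2 were called lower, which stood beside 1.56% of the 16139 genes tested, and 0 were called higher, beside 1.90% (3.45% in either direction). Fosb and Junb were also the 2 members called without control replicate 2. At an unadjusted p under 0.05 there were 5 lower (Fos, Fosb, Jun, Junb and Atf3) and 1 higher (Jdp2), beside 11.3% and 11.5% of all genes. The groups did not overlap for 4 members that were lower and 1 that was higher, beside 14.8% and 16.9% of all genes. The median log2 fold change of the members was -0.53, and that of all tested genes was -0.01. DESeq2 called 4 members lower (Fos, Fosb, Jun and Junb) beside 5.11% of genes, limma-voom 3 (Fos, Fosb and Junb) beside 2.33%, and edgeR on protein-coding genes only the same 3 beside 2.62%, and none of these fits called a member higher, where DESeq2 called 5.22% of genes and limma-voom 2.40%.

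**Figure D2:**
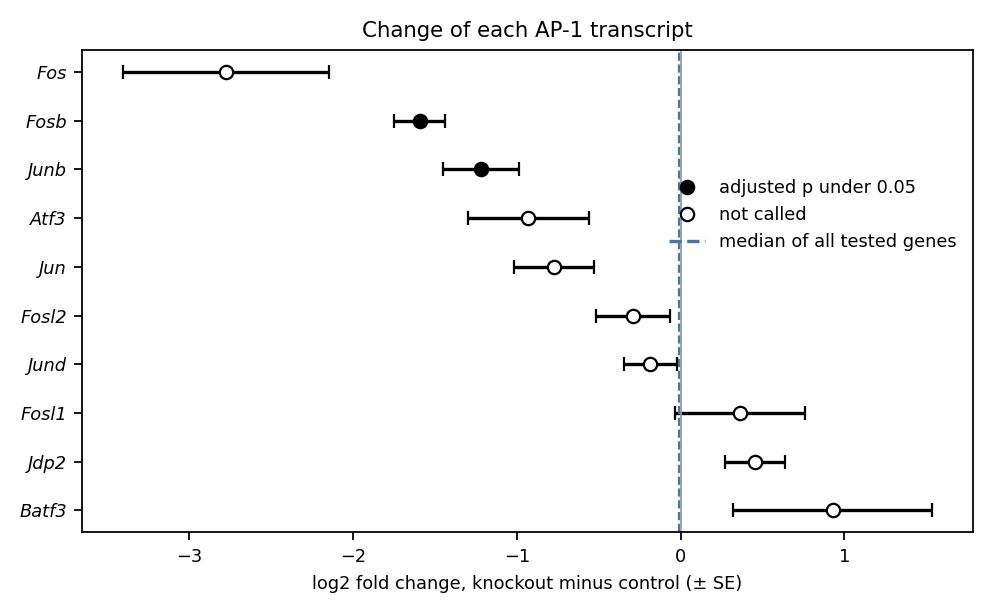
Log2 fold change of knockout minus control on the x axis with its standard error for the 10 members, filled where edgeR's adjusted p was under 0.05 (Fosb and Junb), with a dashed line at the median of all tested genes (-0.01). Fos has the lowest value (-2.77) and, with 0.63, the widest error of the members.

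Both calls rested on which libraries entered. By edgeR, the adjusted p of Fosb rose past the threshold, to 0.0764 on leaving out control replicate 1, 0.0729 on leaving out knockout replicate 1 and 0.0823 on leaving out knockout replicate 2. That of Junb did so without control replicates 1 or 3 (0.136 and 0.0757) or knockout replicates 1, 2 or 3 (0.177, 0.139 and 0.0903). The log2 fold change of Fosb stayed between -1.69 and -1.45 in these 6 fits, that of Junb between -1.37 and -1.03, and that of Fos between -3.64 and -2.29. Calls over all genes were 557 with all 6 libraries, and fell to 7 without control replicate 1 and to 12, 13 and 33 without knockout replicates 1 to 3. Without control replicate 3, where Junb lost its call, 280 genes were still called, and without control replicate 2 there were 911.

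**Figure D3:**
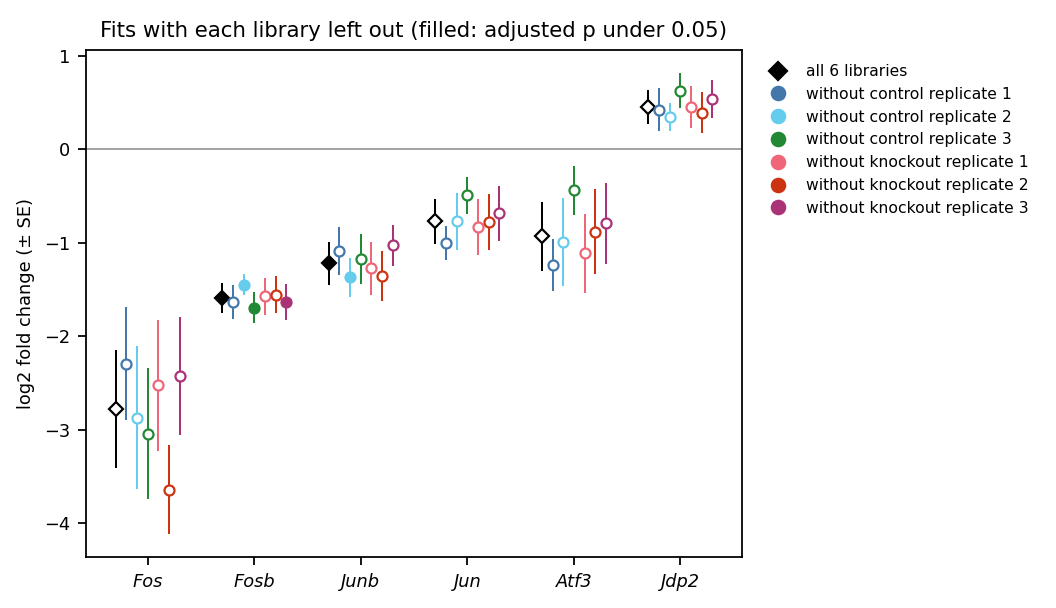
Log2 fold change with its standard error (y axis) for 6 members in the fit of all 6 libraries (diamonds) and in the 6 edgeR fits that each left out 1 library (circles), filled where the adjusted p was under 0.05. Fosb moved little (-1.69 to -1.45), while Atf3 went from -1.24 without control replicate 1 to -0.44 without control replicate 3.

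The control libraries did not rank alike across the members. Control replicate 1 was highest for Fos and Junb and lowest for Jun, Atf3 and Fosl2. Control replicate 3 was highest for Jun, Jund, Atf3 and Jdp2 and lowest for Fos and Fosb, and control replicate 2 was highest for Fosb and Fosl2. Among the knockouts, replicate 2 had the highest Fos, Junb and Jdp2, and also the highest Egr1 and Nr4a1 (60.2 and 98.2 CPM, against 49.7 and 72.1 CPM in replicate 1 and 40.1 and 57.8 CPM in replicate 3). The same library had the lowest Fosb, Fosl2 and Jund of the knockouts (14.9, 104.5 and 262.7 CPM). Its Jun and Atf3 lay between those of replicates 1 and 3.

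Levels of different genes were compared per length, as FPKM (fragment counts scaled by gene length and library total) deposited by the authors. The length implied by these FPKM exceeded the whole gene for Fosb (7356 bases) and Fos (3384 bases), and equalled it for Jun, Junb and Jund. FPKM of Fosb and Fos are therefore too low beside those of the JUN genes. The order and shares of members hold only under these lengths, while each gene's comparison between groups is unaffected. In controls the order was Jund (204.4 ± 51.8 FPKM, SD, n = 3), Jun (55.0 ± 20.5), Junb (33.4 ± 10.2), Atf3 (25.1 ± 13.8), Fos (19.2 ± 10.5), Fosl2 (11.3 ± 2.69), Jdp2 (8.05 ± 2.37), Fosb (2.87 ± 0.224), Fosl1 (0.462 ± 0.167) and Batf3 (0.143 ± 0.159). Neighbours from Jun to Jdp2 in this order, and Fosl1 and Batf3, had overlapping control libraries, so their order is not resolved. In knockouts Fos stood at rank 7 in place of 5 (2.76 ± 2.13 FPKM), below Jdp2 (11.0 ± 1.06) and Fosl2 (9.35 ± 0.413), with no overlap between its libraries and theirs. This rank and the lack of overlap depend on the length taken for Fos.

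By the deposited FPKM, Jund held the main share of the family in each library, with 61.2%, 53.2% and 55.2% of the summed FPKM of the 10 genes in controls and 68.4%, 63.7% and 71.1% in knockouts. Fos and Fosb together held 9.09%, 6.34% and 3.46% in controls and 0.918%, 2.50% and 0.946% in knockouts. The 4 FOS genes held 9.78% ± 3.11 in controls and 5.27% ± 0.983 in knockouts (SD, n = 3), with overlapping groups. The FOS shares are understated by the lengths implied for Fosb and Fos. Jdp2 went from 2.21% ± 0.169 to 4.24% ± 0.573. By CPM, which is not scaled by length, the sum of the 4 FOS genes was 252.4, 301.4 and 211.6 in controls and 136.7, 141.0 and 132.8 in knockouts, with no overlap. The knockout sums lay much closer together than the values of Fos alone, but were mostly Fosl2 (113.1, 104.5 and 109.4 CPM). These sums are descriptions with no test.

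**Figure D4:**
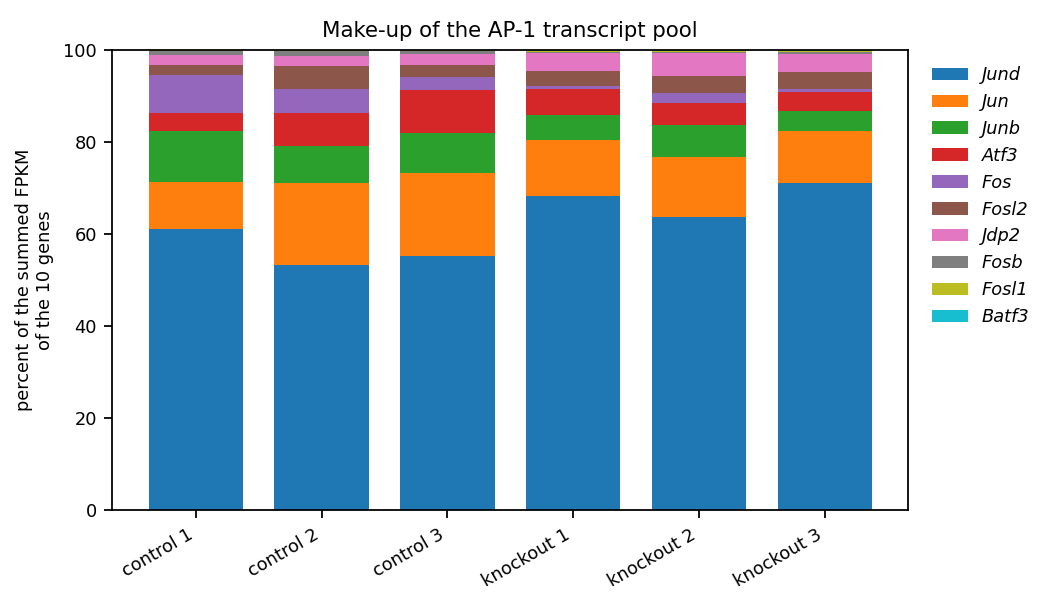
Share of each AP-1 gene in the summed FPKM of the 10 genes (y axis, percent) in each library. Shares follow the lengths behind the deposited FPKM, which are too long for Fos and Fosb. Jund is the main block in every bar (53.2% to 71.1%), and the Fos block narrows from 2.85% to 8.32% in controls to 0.538% to 2.13% in knockouts.

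Ratios of 2 members within a library do not depend on scaling between libraries. The log2 ratio of Fos to Jun counts was -0.05, -1.52 and -2.41 in controls and -4.09, -2.38 and -4.15 in knockouts. Knockout replicate 2 and control replicate 3 nearly coincided, and the difference of -2.21 gave p = 0.2 in a two-sided exact permutation test. The log2 ratio of Fosl2 to Fos was -0.26, 1.59 and 1.52 in controls and 4.10, 2.38 and 4.42 in knockouts, and was the 1 ratio of 6 examined whose groups did not overlap (difference 2.68, exact permutation p = 0.1, the smallest that 3 against 3 libraries allow, and adjusted p = 0.36 over the 6 ratios). Differences of the others were 1.34 for Fosb to Fos, 2.11 for Atf3 to Fos, -0.49 for Junb to Jun and 0.54 for Jund to Jun, with exact permutation p-values of 0.3, 0.2, 0.4 and 0.3 and overlapping groups. Adjusted over the 6 ratios, all p were 0.36 or 0.4, so these libraries do not settle whether the balance between members differed.

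Genes around AP-1 were read from 4 lists. Of 25 tested immediate early genes outside the family, 4 were lower (Egr1, Nr4a1, Nr4a2 and Btg2) and 1 was higher (Gadd45b) by edgeR, beside 1.56% and 1.90% of all genes, and the median log2 fold change was -0.39. At an unadjusted p under 0.05 there were 10 and 1, beside 11.3% and 11.5%. DESeq2 called 7 lower and 1 higher, beside 5.11% and 5.22%, and limma 5 and 1, beside 2.33% and 2.40%. Egr1, a zinc finger factor, had 195.8, 193.9 and 168.0 CPM in controls and 49.7, 60.2 and 40.1 CPM in knockouts (log2 fold change -1.89, edgeR adjusted p = 0.00868), and Nr4a1, an orphan nuclear receptor, had 266.1, 175.0 and 141.2 against 72.1, 98.2 and 57.8 CPM (-1.35, 0.0492). For both genes every knockout library lay below every control library, as for Fosb and Junb. Egr1 kept its call in 4 of the 6 edgeR fits that left out a library, Nr4a2 and Btg2 each in 2 (without control replicate 2 or 3), and Nr4a1 in 1, without control replicate 3. Gadd45b, a stress sensor that acts on MAP kinase signalling, went the other way, from 28.4 ± 11.1 to 68.4 ± 6.95 CPM (SD, n = 3; log2 fold change 1.24, edgeR adjusted p = 0.0465), and also kept its call only without control replicate 3.

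Of 22 genes of the MAP kinase pathway and of the serum response and ternary complex factors, which carry signals to the Fos promoter, 1 was lower and 0 were higher by edgeR, beside 1.56% and 1.90% of all genes. At an unadjusted p under 0.05 there were 5 and 1 (11.3% and 11.5% of all genes), by DESeq2 4 and 1 (5.11% and 5.22%) and by limma 2 and 0 (2.33% and 2.40%). The call was Elk1, a ternary complex factor (25.5 ± 2.60 to 15.2 ± 1.20 CPM, SD, n = 3, log2 fold change -0.73, edgeR adjusted p = 0.0431), and its call held in 1 of those 6 fits, without control replicate 2. Srf, which encodes serum response factor, had 98.2, 102.7 and 69.4 CPM in controls and 55.0, 49.9 and 57.2 CPM in knockouts (-0.73, 0.0583), and was called lower by DESeq2 (adjusted p = 0.00567), by edgeR on protein-coding genes only (0.0485) and by edgeR without control replicate 3 (0.038). The list's median was -0.18.

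Of 19 tested bZIP genes outside the family, 0 were called by edgeR or limma, 1 (Maff, higher) was called by DESeq2, and 2 were lower and 2 higher at an unadjusted p under 0.05, beside 11.3% and 11.5% of all genes. Maff, a small MAF protein without an activation domain, had 23.2, 18.9 and 20.8 CPM in controls and 32.4, 34.5 and 28.2 CPM in knockouts (log2 fold change 0.59, edgeR adjusted p = 0.0683), and the median of the list was 0.07. Of 19 tested textbook AP-1 target genes, 0 were called by edgeR, DESeq2 or limma, and 0 were lower and 3 higher at an unadjusted p under 0.05 (Vegfa, Plau and Tgfb1), beside the same shares. The smallest p was that of Vegfa, the endothelial growth factor, at 43.8 ± 9.24 and 64.3 ± 10.3 CPM (SD, n = 3; log2 fold change 0.57, edgeR adjusted p = 0.13). Without control replicate 2 Vegfa passed the test (log2 fold change 0.74, edgeR adjusted p = 0.0488). The median of the list was 0.10.

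**Figure D5:**
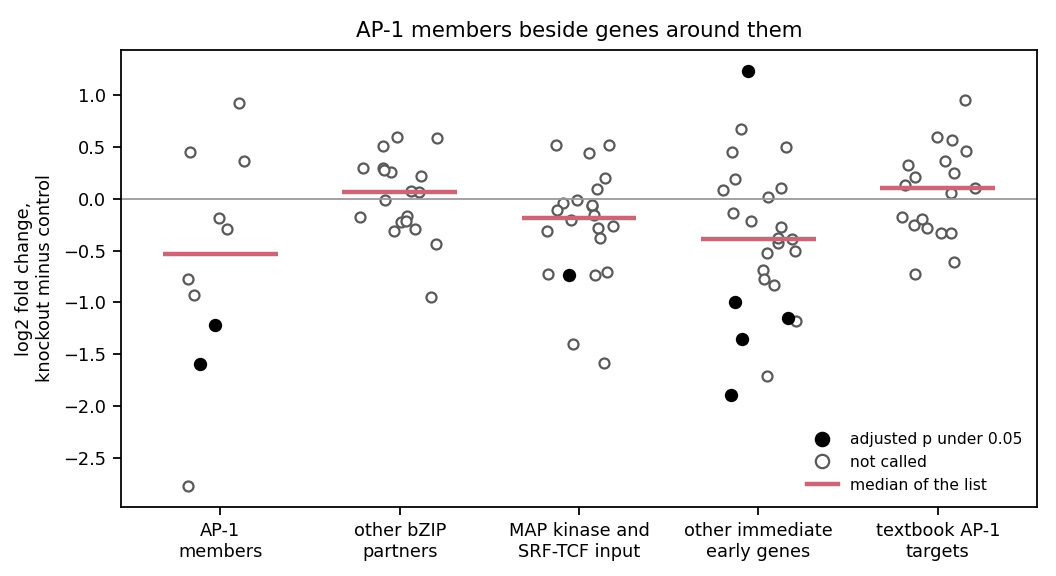
Log2 fold change of knockout minus control (y axis) for the tested genes of the AP-1 family and of 4 surrounding lists, filled where edgeR's adjusted p was under 0.05, with a line at each list's median. The medians are -0.53, 0.07, -0.18, -0.39 and 0.10 from left to right, and the textbook targets show no filled point.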

How the data were processed

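RNA was sequenced from whole aorta of 3 control and 3 knockout mouse libraries, grouped by the sample titles. CASAVA 1.8, HISAT2, SAMtools 1.3.1 and edgeR were used, per the submitters' processing notes. For the read counter, annotation and strand setting nothing is stated in the sources used here. The authors deposited whole read counts and FPKM for each gene. FPKM equalled the count over 1 length per gene and the library total, to a relative 1.35e-05 over 7705 genes whose lowest count was 50 or more. The notes name GRCm39, yet 54907 of 55227 shared identifiers (99.4%) have the GRCm38 positions of GENCODE M21, so positions are given as GRCm38.

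Counts were filtered with filterByExpr by group (16139 genes kept), scaled with the trimmed mean of M values and tested with edgeR 4.0.16 (glmQLFit, glmQLFTest, robust) in R 4.3.3, two-sided, with Benjamini-Hochberg adjustment over all tested genes and a threshold of 0.05. Standard errors are the log2 fold change over the square root of F. Alternatives were DESeq2 1.42.0, limma-voom 3.58.1, other scaling factors, no filter, protein-coding genes only, each library left out and a replicate block. Within-library ratios used log2((count + 0.5)/(count + 0.5)) and an exact permutation test. The edgeR step was tested on simulated data. Pairs of libraries of a group differed beyond counting error (mean chi-square per gene 15.9 to 157.5), so none was taken for a copy.

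The members and lists were chosen with earlier results of these data known. Genes named were the members, Ogt, Egr1, Nr4a1, the list genes past the threshold or else the one with the smallest p, and the nearest patterns. Srf, Plau, Tgfb1, Pdgfra, Plin1, Lep, Ncam1 and the called marker genes were named after their values were seen. Promoters came from RefSeq.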

Additional observations from a re-analysis of the deposited data

How the results depend on the processing

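Each member kept the sign of its log2 fold change under all 13 alternatives, or 12 where DESeq2 gave no adjusted p (Fosl1 and Batf3). Fosb was called in 10 of 13, Junb in 7, Fos in 3 and Jun in 1, and the other 6 members in none. The members called lower were 4 by DESeq2 and 1 with a replicate block, and 0 to 2 in the fits without 1 library, with 0 of 10 without control replicate 1 or knockout replicates 1 or 2, where few genes of the whole table were called either. Over all genes DESeq2 called 742 lower and 759 higher, and the replicate block, which pairs libraries by number, called 10 and 18. Fits without 1 library called 3 to 420 lower and 4 to 491 higher, the most without control replicate 2. The cause was not tested. Deviations of same-numbered libraries of the 2 groups were weakly correlated (r = 0.05, 0.09 and -0.06 for numbers 1 to 3). Those of differently numbered libraries were as weak (-0.10 to 0.10). Such correlations cannot tell whether the numbers pair mice, which the sources used here do not state. Under the block Fosb kept its call (adjusted p = 0.0457) and Junb did not (0.103). Other scaling factors changed no member's call. Of 271 alternative values for single genes, 210 kept their side of the threshold, 52 lost it, 9 gained it and 0 changed sign. With counts, which are not scaled by length, in place of FPKM, Jund held 37.0% of the family in controls and 47.6% in knockouts, and the FOS genes 28.5% and 22.1%. Part of this gap comes from the lengths behind the FPKM of Fosb and Fos, which exceed the genes themselves. Values of Fosl1 and Batf3 rest on 111 and 67 counts in all 6 libraries, and control replicate 2 holds the fewest counts of every member except Fos.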

Other observations

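Genes with the pattern most like that of a member were sought as the smallest root mean square difference of control-centred log2 CPM over the 6 libraries, among tested genes with a mean of at least 5 CPM. For Fosb they were Lonrf2, Zfp93 and Phkg1 (differences of 0.16, 0.17 and 0.17 on the log2 scale), for Junb Foxf1, B3galt2 and Nudt12 (0.20, 0.23 and 0.24), and for Jun Acsf3, Dclre1c and Fap (0.12, 0.15 and 0.16). For Fos the nearest were Fgf2, Zfp62 and Ucp1, at 0.78, 0.80 and 0.82, so no gene searched came as close to Fos as the nearest genes of Fosb, Junb and Jun did to theirs. The 3 nearest genes of these 4 members held no gene of the list of immediate early genes outside the family. A gene whose change has another size lies far by this measure. Their absence therefore does not show that they varied differently between libraries.

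The 10 members include 3 pairs on the same chromosome. Fos and Jdp2 lie 121753 bases apart on chromosome 12, with log2 fold changes of -2.77 and 0.45, and Batf3 and Atf3 lie 61350 bases apart on chromosome 1, with 0.93 and -0.93, or 1.92 and -0.44 without control replicate 3. Jund and Junb lie 14276293 bases apart on chromosome 8, with -0.18 and -1.22, Junb having passed the test. Fos, Jdp2, Batf3 and Atf3 did not pass edgeR's test over all genes (adjusted p = 0.0706, 0.193, 0.404 and 0.199), and the differences within pairs were not tested.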
